A study of Saccharomyces cerevisiae with 21 samples.

Results

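The 34 nuclear genes described here encode the respiratory chain and ATP synthase of budding yeast. They are the rows of the deposited table of levels whose names stand in a list of 34: 3 NADH dehydrogenases with the lactate dehydrogenase CYB2 (4 genes together), 9 subunits of complex III, 7 of complex IV, and 14 genes of ATP synthase and its inhibitor. All 34 were found among the 6407 genes of the table, and all 34 passed the filter on low values in every comparison.

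In mitochondria of this yeast, electrons from NADH pass through coenzyme Q and complex III to cytochrome c, which also takes electrons from lactate. Complex IV passes them on to oxygen, and ATP synthase uses the resulting proton gradient to make ATP. Saccharomyces cerevisiae has no proton-pumping complex I: single-chain NADH dehydrogenases take its place. While glucose is plentiful the cells ferment and hold these genes down, and the Hap2/3/4/5 complex, which binds CCAAT boxes, is a known activator of many of them. Swi/Snf is a complex that moves nucleosomes, with Snf2 as its ATPase and Swi3 as a core subunit.

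RNA was sequenced from W303 cultures in mid-log growth in YPD, a rich glucose medium, with 3 libraries per group (21 in all), each replicate from its own day. In the SWI3 family the chromosomal SWI3 was deleted in all 3 groups. The swi3del group carried LEU2 alone, swi3-E815X carried the swi3-E815X allele with LEU2 (in the usual notation X is a stop codon), and SWI3 carried the wild-type gene with LEU2. In the SNF2 family SNF2 was deleted in all 4 groups, and the groups carried LEU2 alone (snf2del), the allele snf2-W935R with LEU2, the allele snf2-Q928K with LEU2, or wild-type SNF2 with LEU2 (SNF2). The sources used here do not say whether a group was 1 clone.

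Levels are TPM, a unit that scales each gene by its length and each library to the same total, so that a level is a share of the RNA measured. In these bulk cultures fewer cells with a transcript and less of it per cell cannot be told apart. The library totals over the table ran between 960811 and 1000396 TPM, and sequencing depth is unknown. SWI3 RNA stood at 0.127 ± 0.0601 TPM in swi3del, 35.5 ± 0.967 TPM in swi3-E815X and 37.1 ± 1.38 TPM in SWI3 (SD, n = 3 each). The level of SNF2 is not analysed here, so the deletion of SNF2 was not checked on its own RNA. LEU2, the strain marker, stood at 136 ± 1.84 TPM in swi3del and 151 ± 19.9 TPM in snf2del, and between 0.133 and 0.552 TPM in each of the 15 other libraries, so its RNA moved with every rise in the deletions. The labels name LEU2 in every group and do not say why its RNA was so low in those 15 libraries. The part of LEU2 in the rises of the deletions was not tested. Among the snf2-Q928K libraries replicate 1 was the highest in 33 of the 34 genes. Other groups leaned on 1 library as well: snf2-W935R replicate 1 was the highest in 28, and swi3del replicate 2 and swi3-E815X replicate 3 in 25 each. The share over all genes was not counted.

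Loss of Swi3 or of Snf2 was accompanied by higher RNA of nearly the whole chain. In swi3del 32 of the 34 genes rose and none fell, and in snf2del 31 rose and none fell. Of all genes tested, 47.4% rose and 24.3% fell in swi3del, and 50.2% rose and 24.6% fell in snf2del. A change counts as a rise or fall at an adjusted p under 0.05 from limma (two-sided, Benjamini-Hochberg over all genes tested, n = 3 libraries per group), on the log2(TPM + 1) scale, which understates changes of low genes, and each change is given as a log2 difference ± SE. Rises of log2 1 or more numbered 14 in swi3del, where 17.5% of all genes rose by that much, and 17 in snf2del, where 19.8% did. All 31 genes that rose in snf2del also rose in swi3del. At an unadjusted p under 0.05 the genes numbered 33 in either direction in swi3del, against 73.6% of all genes, and 31 in snf2del, against 76.6%.

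The median change of the 34 genes was 0.92 in swi3del, where the median over all genes tested was 0.23, and 1.01 in snf2del, where it was 0.26. Because the middle of all genes was shifted up in both deletions, the changes were also taken with libraries scaled to their median gene ratio. With that scaling 27 genes rose and 1, ATP3, fell in swi3del, and 26 rose and 1, again ATP3, fell in snf2del, while all genes split into 35.8% higher and 35.7% lower in swi3del, and 37.9% higher and 37.7% lower in snf2del. Of the 34 genes, 22 were higher in swi3del and 25 in snf2del at an adjusted p under 0.05 in the authors' deposited table of each deletion, and none was lower. Of all genes in the authors' deposited table for swi3del, 16.6% were higher. The authors' deposited table for snf2del lists only genes past this threshold, of which 49.8% were higher.

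As a share of all TPM, the 34 genes together made up 1.21%, 1.39% and 1.19% in the swi3del libraries, 0.653%, 0.651% and 0.754% in swi3-E815X and 0.614%, 0.640% and 0.634% in SWI3. In the SNF2 family they made up 1.29%, 1.16% and 1.23% in snf2del, 0.897%, 0.858% and 0.861% in snf2-W935R, 1.04%, 0.855% and 0.816% in snf2-Q928K, and 0.618%, 0.615% and 0.612% in SNF2. The deletions stood clear of their wild types, both snf2 alleles lay between their deletion and wild type, and swi3-E815X lay close above SWI3.

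**Figure D1:**
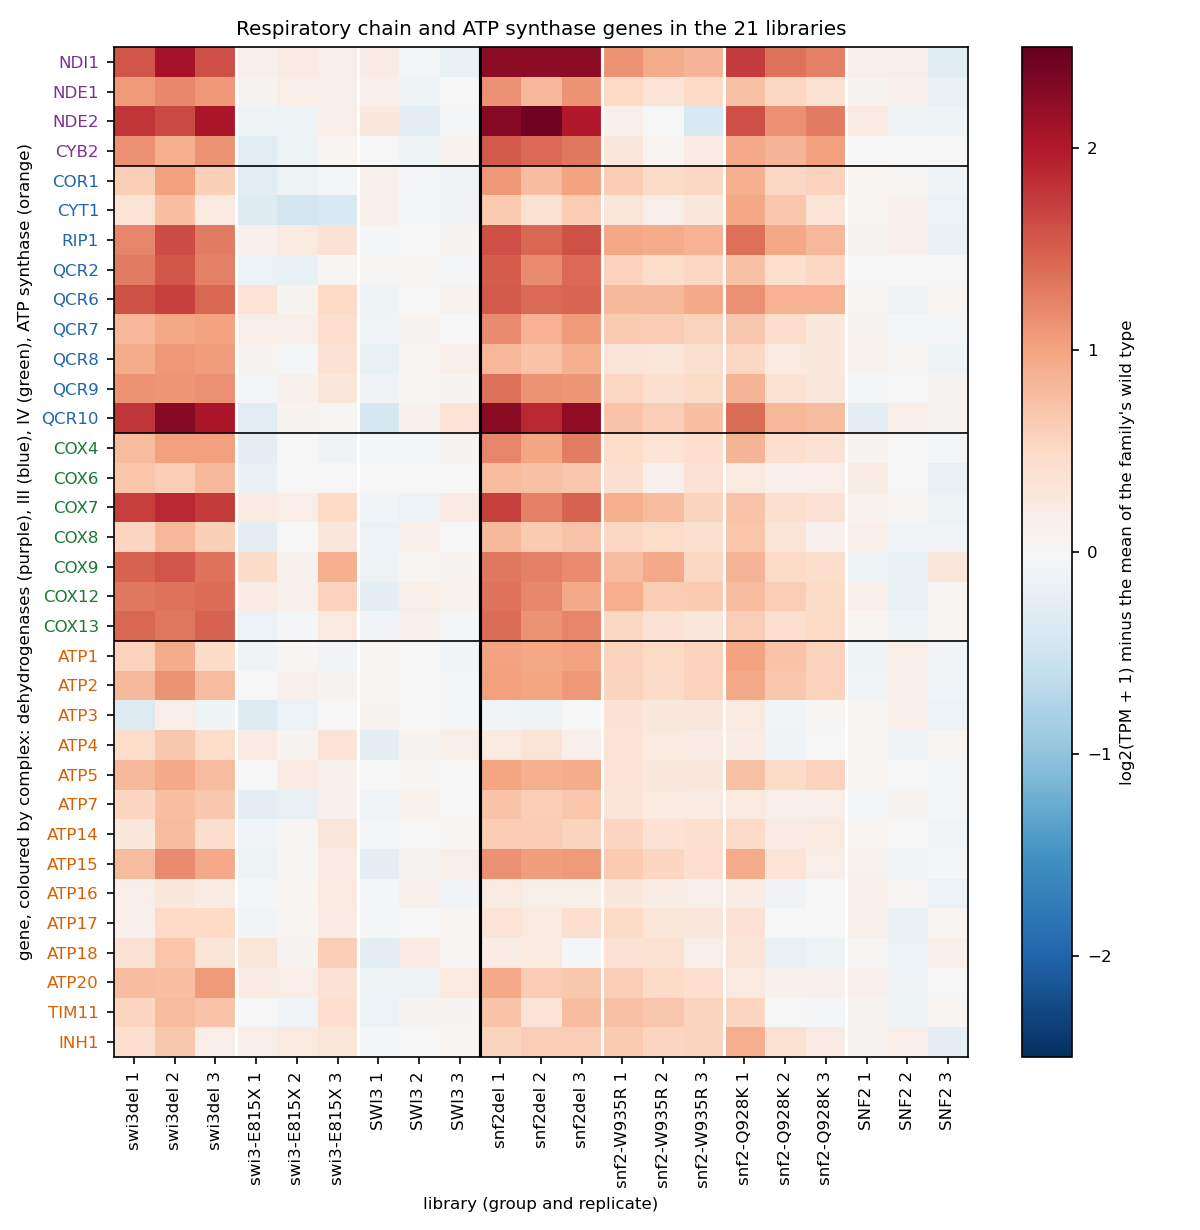
Each cell is log2(TPM + 1) of 1 gene in 1 library minus the mean of its family's wild type, with the 7 groups in columns (3 libraries each) and the 34 genes in rows by complex. The swi3del and snf2del columns are red in nearly all rows, with ATP3, ATP16 and ATP18 pale, and swi3-E815X is pale in most rows, with COX9 of replicate 3 its reddest cell.

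The sequences upstream of the genes are shown first, for the pair with the highest and the pair with the lowest mean change over the deletions. Each window holds the 300 bases from 400 to 101 before the start codon, read 5′ to 3′ on the strand of the gene from the R64 genome of RefSeq, the build of the files. Capitals mark CCAAT, the core letters of the Hap2/3/4/5 site, and AGGGG, the core letters of the Msn2/4 stress site, on either strand, so that the opposite strand reads ATTGG and CCCCT. QCR10 lies at chrVIII:107426-107725, NDE2 at chrIV:302811-303110, ATP16 at chrIV:442629-442928 and ATP3 at chrII:315175-315474, all on the plus strand.
QCR10: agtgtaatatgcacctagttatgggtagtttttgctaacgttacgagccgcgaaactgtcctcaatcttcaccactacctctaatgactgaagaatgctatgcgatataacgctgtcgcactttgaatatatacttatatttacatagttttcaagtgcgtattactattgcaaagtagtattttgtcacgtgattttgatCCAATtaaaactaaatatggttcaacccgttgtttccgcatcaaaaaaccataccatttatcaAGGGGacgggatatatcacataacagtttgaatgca
NDE2: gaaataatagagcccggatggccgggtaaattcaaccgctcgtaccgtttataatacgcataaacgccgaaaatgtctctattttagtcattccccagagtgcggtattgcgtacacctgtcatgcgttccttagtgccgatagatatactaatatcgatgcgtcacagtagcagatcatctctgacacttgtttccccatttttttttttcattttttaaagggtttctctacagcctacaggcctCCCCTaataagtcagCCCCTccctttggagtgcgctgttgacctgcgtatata
ATP16: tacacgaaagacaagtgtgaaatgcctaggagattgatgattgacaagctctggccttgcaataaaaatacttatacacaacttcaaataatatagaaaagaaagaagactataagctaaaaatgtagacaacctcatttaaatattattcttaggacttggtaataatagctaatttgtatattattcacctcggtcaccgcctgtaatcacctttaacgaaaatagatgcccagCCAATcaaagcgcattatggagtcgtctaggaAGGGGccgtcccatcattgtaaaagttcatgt
ATP3: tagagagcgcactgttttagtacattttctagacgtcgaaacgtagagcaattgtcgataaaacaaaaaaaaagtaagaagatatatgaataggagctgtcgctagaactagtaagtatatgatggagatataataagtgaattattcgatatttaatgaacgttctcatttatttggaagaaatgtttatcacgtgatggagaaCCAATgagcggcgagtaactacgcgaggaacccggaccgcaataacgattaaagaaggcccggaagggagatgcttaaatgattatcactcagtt

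QCR10, with a mean change of 2.08 over the deletions, holds 1 CCAAT and 1 AGGGG, and NDE2, with 2.03, holds no CCAAT and 2 AGGGG. ATP16, with 0.18, has the same motif counts as QCR10, and ATP3, with -0.08, holds 1 CCAAT. Over the 34 genes, 31 windows (91.2%) hold a CCAAT, against 43.9% of the 6001 windows of all protein-coding genes, and 15 (44.1%) hold 2 or more, against 12.2%. The windows of ATP synthase genes all hold one (14 of 14), and those of NDE2, CYT1 and COX4 do not. AGGGG was found in 13 windows (38.2%), against 23.5% of all protein-coding genes. Another annotated protein-coding gene overlaps the windows of CYB2, QCR2, QCR6, QCR7, QCR8, COX6, COX8, COX12, ATP2, ATP17, ATP20 and TIM11. Whether matches lie inside that gene was not checked, for these windows or for those of all protein-coding genes.

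The 31 genes with a CCAAT had a median change of 0.90 in swi3del and 0.99 in snf2del, and the 3 without had 0.95 in swi3del and 1.16 in snf2del. Among the 13 genes with an AGGGG the median was 1.05 in swi3del and 1.20 in snf2del, and among the 21 without it was 0.85 in swi3del and 0.81 in snf2del. The ranges of genes with and without either motif overlapped in both deletions. A match of letters is a description and does not show that a factor binds there.

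HAP4, the activating subunit of the Hap complex whose level follows the carbon source, rose in both deletions. It stood at 68.6, 90.4 and 66.7 TPM in swi3del, 27.3, 22.9 and 24.1 TPM in swi3-E815X and 32.3, 23.2 and 20.1 TPM in SWI3, and the swi3del libraries lay above both other groups. In the other family it stood at 81.8, 75.4 and 79.3 TPM in snf2del, 65.8, 45 and 47.2 TPM in snf2-W935R, 48.7, 31.5 and 33.5 TPM in snf2-Q928K and 35.2, 32.4 and 21.7 TPM in SNF2, with overlap only between snf2-Q928K and its neighbours. The log2 change was 1.55 ± 0.17, adjusted p = 1.24e-05 in swi3del, 1.40 ± 0.21, adjusted p = 9.24e-05 in snf2del and 0.81 ± 0.21, adjusted p = 0.0152 in snf2-W935R, a call that was lost without snf2-W935R replicate 1 (0.64). In snf2-Q928K the change was 0.34 ± 0.21, adjusted p = 0.192, and in swi3-E815X -0.0023 ± 0.17, adjusted p = 0.997. Of the 5 Hap genes measured, 4 rose in each deletion, 2 in snf2-Q928K, 3 in snf2-W935R and none in swi3-E815X, and none fell. Of all genes, 47.4% rose in swi3del, 50.2% in snf2del, 36.3% in snf2-Q928K, 16.3% in snf2-W935R and 3.06% in swi3-E815X. HAP5 stood at 0.39 ± 0.14, adjusted p = 0.0497 in snf2-W935R, a call lost without any 1 library of snf2-W935R or snf2del, without SNF2 replicate 1 or 2 and without snf2-Q928K replicate 1 or 3, and its call in swi3del was lost without SWI3 replicate 2 or swi3del replicate 2. Median-ratio scaling took both calls. That in snf2-W935R was also lost with all 21 libraries in 1 fit, with plain moderation and with a pseudocount of 5. HAP1, the heme-responsive activator, changed by 0.49 ± 0.07 in swi3del, 0.75 ± 0.08 in snf2del, 0.34 ± 0.08 in snf2-W935R and 0.81 ± 0.08 in snf2-Q928K, all of them rises. HAP3 passed the test in none of the 5 mutants. With median-ratio scaling the Hap genes that rose numbered 2 in swi3del and 3 in snf2del, and HAP2, a rise of 0.23 in snf2del, stood at -0.020.

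The entry points of electrons had the largest median change of the 4 groups of genes in both deletions. NDI1, which oxidises NADH inside the mitochondrion, NDE1 and NDE2, which oxidise NADH of the cytosol, and CYB2, the lactate dehydrogenase that feeds cytochrome c, all rose in both deletions and all rose in snf2-Q928K. In snf2-W935R only NDI1 and NDE1 passed the test. The median change of these 4 genes was 1.43 in swi3del, 1.83 in snf2del, 0.31 in snf2-W935R and 1.14 in snf2-Q928K. Among all genes 47.4% rose in swi3del, 50.2% in snf2del, 16.3% in snf2-W935R and 36.3% in snf2-Q928K.

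NDI1 stood at 107, 154 and 110.4 TPM in swi3del, 38.7, 41.2 and 39.8 TPM in swi3-E815X and 40.7, 34.7 and 31.6 TPM in SWI3. NDI1 in the SNF2 family stood at 144, 143 and 143 TPM in snf2del, 66.2, 57.6 and 54.5 TPM in snf2-W935R, 102, 77.5 and 72 TPM in snf2-Q928K and 33.4, 32.9 and 23.7 TPM in SNF2. Both deletions and both snf2 alleles lay wholly above their wild types, and swi3-E815X overlapped SWI3. Its log2 change was 1.75 ± 0.13, adjusted p = 4.03e-07 in swi3del, 2.24 ± 0.14, adjusted p = 8.93e-09 in snf2del, 0.97 ± 0.14, adjusted p = 0.00018 in snf2-W935R and 1.45 ± 0.14, adjusted p = 1.7e-06 in snf2-Q928K.

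NDE1, the major external enzyme, stood at 929.9, 1018 and 934 TPM in swi3del, 466, 494 and 492 TPM in swi3-E815X and 481, 411 and 439 TPM in SWI3. NDE1 in the SNF2 family stood at 969, 777 and 957 TPM in snf2del, 621, 558 and 618 TPM in snf2-W935R, 731, 625 and 571 TPM in snf2-Q928K and 457, 473 and 391 TPM in SNF2. The deletions and the snf2 alleles were again above their wild types with no overlap, by 1.11 ± 0.07 in swi3del, 1.03 ± 0.11 in snf2del, 0.45 ± 0.11 in snf2-W935R and 0.54 ± 0.11 in snf2-Q928K.

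NDE2, the second external enzyme, was the lowest of the 34 genes in both wild types. It stood at 9.18, 8.34 and 11.1 TPM in swi3del, 1.78, 1.71 and 2.34 TPM in swi3-E815X and 2.58, 1.54 and 1.85 TPM in SWI3. NDE2 in the SNF2 family stood at 11.6, 12.9 and 9.43 TPM in snf2del, 1.85, 1.63 and 0.992 TPM in snf2-W935R, 6.98, 4.72 and 5.38 TPM in snf2-Q928K and 2.01, 1.44 and 1.4 TPM in SNF2. The snf2-W935R libraries overlapped SNF2, whereas snf2-Q928K and snf2del lay above both. The log2 change was 1.83 ± 0.21, adjusted p = 8.73e-06 in swi3del, 2.24 ± 0.20, adjusted p = 9.8e-08 in snf2del, -0.08 ± 0.20, adjusted p = 0.806 in snf2-W935R and 1.35 ± 0.20, adjusted p = 4.5e-05 in snf2-Q928K.

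CYB2 stood at 26.8, 22.3 and 26.5 TPM in swi3del, 9.28, 10.5 and 12 TPM in swi3-E815X and 11.7, 10.7 and 12.4 TPM in SWI3. CYB2 in the SNF2 family stood at 30.6, 28.1 and 26 TPM in snf2del, 12.3, 10.3 and 11.5 TPM in snf2-W935R, 19.9, 18.6 and 21.2 TPM in snf2-Q928K and 9.93, 10.0 and 9.75 TPM in SNF2. The deletions and snf2-Q928K were clear of the wild types, and the snf2-W935R libraries lay only slightly above SNF2. The change was 1.05 ± 0.12, adjusted p = 7.29e-06 in swi3del, 1.42 ± 0.10, adjusted p = 4.85e-09 in snf2del, 0.18 ± 0.10, adjusted p = 0.183 in snf2-W935R and 0.94 ± 0.10, adjusted p = 1.21e-06 in snf2-Q928K.

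Within a library, ratios of genes do not depend on how the libraries were scaled. The ratio of NDE2 to NDE1 averaged 0.00999 ± 0.00186 in swi3del and 0.00444 ± 0.000828 in SWI3, and 0.0128 ± 0.00349 in snf2del, 0.00884 ± 0.00112 in snf2-Q928K, 0.00250 ± 0.000779 in snf2-W935R and 0.00367 ± 0.000680 in SNF2 (SD, n = 3 each). The pair thus did not keep its proportions: the ratio lay above the wild type in every library of the deletions and of snf2-Q928K and below it in every library of snf2-W935R. In snf2-W935R the margin was narrow, with 0.00298 in its highest library against 0.00304 in the lowest of SNF2. NDE2 stood there at 0.992 to 1.85 TPM, and its change did not pass the test. An exact permutation test of 3 against 3 libraries cannot go below a two-sided p of 0.1. The ratio of NDE2 to NDE1 reached it in both deletions and both snf2 alleles. Because the pair was chosen after its values were seen, that p gives no support for a difference.

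**Figure D2:**
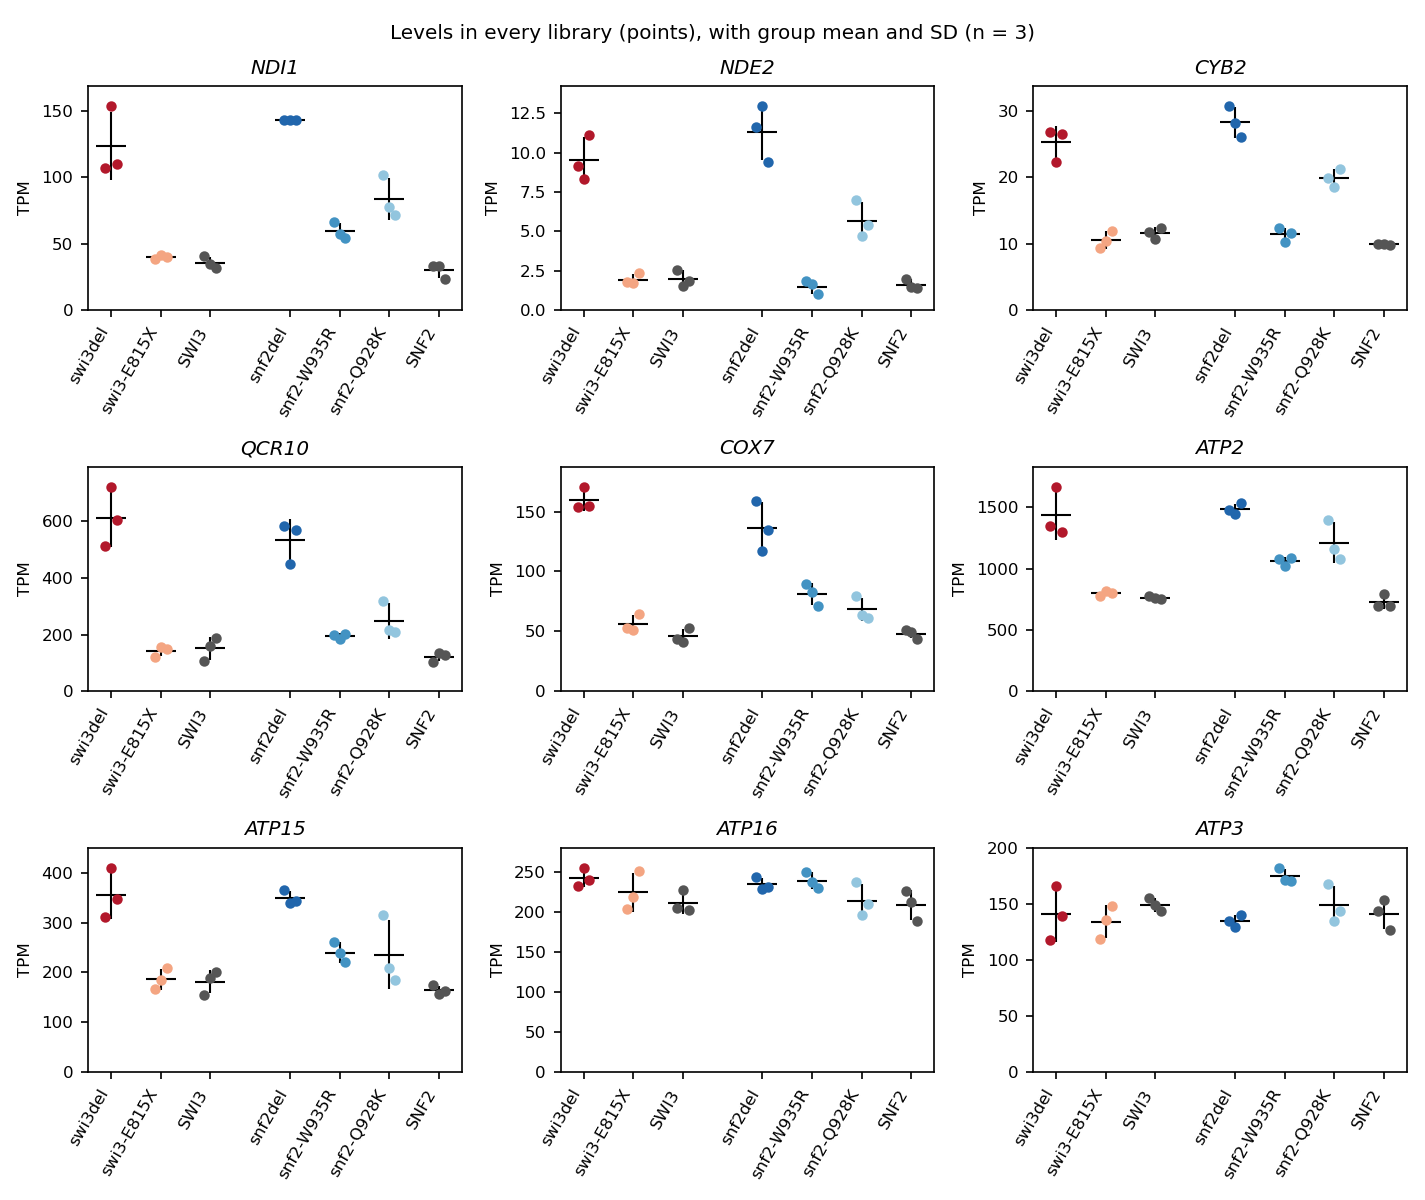
Points are TPM of single libraries, and bars are group means with SD (n = 3), for 9 genes of the chain in the 7 groups, the SWI3 family on the left of each panel. NDE2 and CYB2 are high in snf2-Q928K and near the wild type in snf2-W935R, and ATP16 and ATP3 stay near their wild types in both deletions.

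Complex III, which passes electrons from coenzyme Q to cytochrome c, rose as a whole in both deletions: all 9 subunits in swi3del and all 9 in snf2del, with medians of 1.12 in swi3del and 1.20 in snf2del. In snf2-W935R 8 of the 9 rose (median 0.54), all but CYT1, and in snf2-Q928K all 9 rose (median 0.66). The shares of all genes that rose were 47.4% in swi3del, 50.2% in snf2del, 16.3% in snf2-W935R and 36.3% in snf2-Q928K. The small accessory subunit QCR10 had the highest mean change of all 34 genes over the deletions, and CYT1, the cytochrome c1 that hands electrons to cytochrome c, the lowest of the complex.

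QCR10 stood at 512, 720.3 and 606 TPM in swi3del, 121, 155 and 149.9 TPM in swi3-E815X and 108, 158 and 187 TPM in SWI3. QCR10 in the SNF2 family stood at 584, 450.5 and 569 TPM in snf2del, 199, 185 and 203 TPM in snf2-W935R, 320.1, 215 and 208 TPM in snf2-Q928K and 104, 135 and 127 TPM in SNF2. The deletions were several times their wild types, and both snf2 alleles lay between deletion and wild type. The change was 2.04 ± 0.21, adjusted p = 2.19e-05 in swi3del, 2.13 ± 0.16, adjusted p = 2.13e-07 in snf2del, 0.69 ± 0.16, adjusted p = 0.00883 in snf2-W935R and 1.001 ± 0.16, adjusted p = 0.000281 in snf2-Q928K. Relative to QCR8, another small subunit, QCR10 averaged 1.77 ± 0.206 in swi3del and 0.876 ± 0.148 in SWI3, and 1.79 ± 0.157 in snf2del and 0.723 ± 0.130 in SNF2 (SD, n = 3 each).

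QCR6, the acidic hinge protein, stood at 1165, 1258 and 1039 TPM in swi3del, 491, 404 and 542 TPM in swi3-E815X and 358, 391 and 411 TPM in SWI3. QCR6 in the SNF2 family stood at 1324, 1218 and 1247 TPM in snf2del, 795, 799 and 878 TPM in snf2-W935R, 999, 829 and 828 TPM in snf2-Q928K and 471, 426 and 467 TPM in SNF2. No group overlapped its wild type here except swi3-E815X, whose replicate 2 stood within SWI3. The change was 1.57 ± 0.11 in swi3del, 1.47 ± 0.08 in snf2del, 0.86 ± 0.08 in snf2-W935R and 0.96 ± 0.08 in snf2-Q928K.

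RIP1, the Rieske iron-sulfur protein, stood at 330.0, 441 and 351 TPM in swi3del, 154, 169 and 183 TPM in swi3-E815X and 137, 141 and 148 TPM in SWI3. RIP1 in the SNF2 family stood at 374, 329.8 and 369 TPM in snf2del, 238, 231 and 223 TPM in snf2-W935R, 316, 237 and 215 TPM in snf2-Q928K and 127, 130.1 and 108 TPM in SNF2. All of the mutant libraries were above their wild types, and the change was 1.38 ± 0.10 in swi3del, 1.55 ± 0.12 in snf2del, 0.92 ± 0.12 in snf2-W935R and 1.05 ± 0.12 in snf2-Q928K, all past the test, against 0.24 ± 0.10, adjusted p = 0.193 in swi3-E815X.

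COR1, a core subunit, stood at 257, 339.7 and 251 TPM in swi3del, 139, 152 and 163 TPM in swi3-E815X and 179.8, 163 and 157 TPM in SWI3. COR1 in the SNF2 family stood at 309, 251 and 295 TPM in snf2del, 227, 204 and 209.9 TPM in snf2-W935R, 270.3, 211 and 219 TPM in snf2-Q928K and 151, 150.0 and 138 TPM in SNF2. The deletions and snf2 alleles lay above their wild types, with changes of 0.75 ± 0.11 in swi3del, 0.95 ± 0.10 in snf2del, 0.54 ± 0.10 in snf2-W935R and 0.66 ± 0.10 in snf2-Q928K.

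CYT1 stood at 166, 222 and 154 TPM in swi3del, 106, 95 and 101 TPM in swi3-E815X and 145, 127 and 123 TPM in SWI3. CYT1 in the SNF2 family stood at 211, 174 and 207 TPM in snf2del, 164, 147 and 161 TPM in snf2-W935R, 260.0, 213 and 169 TPM in snf2-Q928K and 137, 144 and 119 TPM in SNF2. It was the one subunit whose swi3-E815X libraries all lay below SWI3. The change was 0.44 ± 0.12, adjusted p = 0.0069 in swi3del, -0.38 ± 0.12, adjusted p = 0.0809 in swi3-E815X, 0.56 ± 0.13, adjusted p = 0.00193 in snf2del, 0.24 ± 0.13, adjusted p = 0.216 in snf2-W935R and 0.66 ± 0.13, adjusted p = 0.000979 in snf2-Q928K. With median-ratio scaling the rises of CYT1 in both deletions missed the threshold, at 0.20 in swi3del and 0.30 in snf2del. QCR2, QCR7, QCR8 and QCR9, the remaining subunits, rose by 0.94 to 1.37 in swi3del, 0.81 to 1.37 in snf2del, 0.35 to 0.61 in snf2-W935R and 0.34 to 0.56 in snf2-Q928K.

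Complex IV, the terminal oxidase, has its catalytic subunits encoded in the mitochondrial genome, which is not analysed here, and 7 of its nuclear subunits are members. All 7 rose in each deletion, with a median of 1.36 in swi3del and 1.16 in snf2del. All 7 rose in snf2-W935R (median 0.46) and 6 in snf2-Q928K (median 0.51), where COX6 stood at 0.18 ± 0.09, adjusted p = 0.103. The COX6 call in snf2-W935R was lost without SNF2 replicate 2 or 3 or snf2-W935R replicate 1 or 3. That of COX8 in snf2-Q928K was lost with median-ratio scaling and without SNF2 replicate 2 or snf2-Q928K replicate 1. The shares of all genes that rose were 47.4% in swi3del, 50.2% in snf2del, 16.3% in snf2-W935R and 36.3% in snf2-Q928K.

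COX7, a small subunit of the membrane part, stood at 153, 170.3 and 155 TPM in swi3del, 52.3, 51.4 and 64.4 TPM in swi3-E815X and 43.3, 41.3 and 52.7 TPM in SWI3. COX7 in the SNF2 family stood at 159, 117 and 135 TPM in snf2del, 89.7, 82.8 and 70.9 TPM in snf2-W935R, 79.6, 63.6 and 61.4 TPM in snf2-Q928K and 50.7, 49.5 and 43.8 TPM in SNF2. Both deletions stood clear of every other group of their family. The change was 1.79 ± 0.11, adjusted p = 3.97e-08 in swi3del, 1.48 ± 0.13, adjusted p = 1.24e-07 in snf2del, 0.74 ± 0.13, adjusted p = 0.000642 in snf2-W935R and 0.49 ± 0.13, adjusted p = 0.00461 in snf2-Q928K.

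COX9, another small membrane subunit, stood at 649, 696 and 601 TPM in swi3del, 327, 252 and 431 TPM in swi3-E815X and 215, 242 and 247 TPM in SWI3. COX9 in the SNF2 family stood at 606, 579.7 and 548 TPM in snf2del, 413, 469 and 345 TPM in snf2-W935R, 438, 337 and 329 TPM in snf2-Q928K and 223, 216 and 294 TPM in SNF2. All swi3-E815X libraries were above SWI3, though their replicates were far apart, and the change there was 0.49 ± 0.16, adjusted p = 0.109. It was 1.47 ± 0.16 in swi3del, 1.25 ± 0.14 in snf2del, 0.74 ± 0.14 in snf2-W935R and 0.59 ± 0.14 in snf2-Q928K, all past the test.

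COX4, which is needed to assemble the oxidase, stood at 273, 323 and 324 TPM in swi3del, 133, 159.5 and 148 TPM in swi3-E815X and 154, 155 and 165 TPM in SWI3. COX4 in the SNF2 family stood at 343, 291 and 355 TPM in snf2del, 203, 186 and 198 TPM in snf2-W935R, 266, 198 and 188 TPM in snf2-Q928K and 154, 146 and 141 TPM in SNF2. The deletions and snf2 alleles lay above the wild types, by 0.95 ± 0.09 in swi3del, 1.16 ± 0.11 in snf2del, 0.41 ± 0.11 in snf2-W935R and 0.54 ± 0.11 in snf2-Q928K. The rise in snf2-W935R was lost without SNF2 replicate 3 or snf2-W935R replicate 1. COX6, COX8, COX12 and COX13 rose by 0.65 to 1.41 in swi3del and 0.73 to 1.24 in snf2del. COX12 and COX13 were the higher pair in each deletion.

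ATP synthase had the lowest median change of the 4 groups of genes in both deletions and held all the genes that did not pass the test there. Of its 14 genes, 12 rose in swi3del (median 0.59), 11 in snf2del (median 0.61), 12 in snf2-W935R (median 0.40) and 7 in snf2-Q928K (median 0.18). Among all genes 47.4% rose in swi3del, 50.2% in snf2del, 16.3% in snf2-W935R and 36.3% in snf2-Q928K. The catalytic head pair ATP1 (alpha) and ATP2 (beta), ATP5 of the peripheral stalk and ATP15 (epsilon) rose by 0.66 to 0.97 in swi3del and 0.94 to 1.08 in snf2del. ATP3 (gamma) and ATP16 (delta), which form the central stalk together with epsilon, did not pass the test in either deletion. With median-ratio scaling ATP3 fell in both deletions. Under that scaling ATP14, ATP16, ATP17, ATP18 and INH1 passed no test in swi3del, and ATP4, ATP16, ATP17, ATP18, TIM11 and INH1 passed none in snf2del. In snf2-Q928K it took the calls of ATP7, ATP15 and INH1. Only ATP1, ATP2, ATP5 and ATP14 of ATP synthase still rose there, where 29.2% of all genes rose under that scaling.

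ATP1 stood at 435, 554 and 407 TPM in swi3del, 274.98, 299.8 and 277 TPM in swi3-E815X and 302, 293 and 278 TPM in SWI3. ATP1 in the SNF2 family stood at 522, 515 and 523 TPM in snf2del, 391, 371 and 388 TPM in snf2-W935R, 527, 426 and 389 TPM in snf2-Q928K and 242, 294 and 250.2 TPM in SNF2. Deletions and snf2 alleles were above their wild types in every library. The change was 0.66 ± 0.10, adjusted p = 8.93e-05 in swi3del, 0.99 ± 0.10, adjusted p = 2.8e-07 in snf2del, 0.55 ± 0.10, adjusted p = 0.000643 in snf2-W935R and 0.76 ± 0.10, adjusted p = 1.13e-05 in snf2-Q928K.

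ATP2, the most abundant of the 34 RNAs in both wild types, stood at 1344, 1663 and 1298 TPM in swi3del, 772, 821 and 797 TPM in swi3-E815X and 779, 756 and 750.3 TPM in SWI3. ATP2 in the SNF2 family stood at 1478, 1447 and 1534 TPM in snf2del, 1074, 1019.6 and 1084 TPM in snf2-W935R, 1399, 1158 and 1077 TPM in snf2-Q928K and 695, 794 and 696 TPM in SNF2. The deletions stood clear of their wild types by 0.90 ± 0.09 in swi3del and 1.03 ± 0.09 in snf2del, and the snf2 alleles by 0.54 ± 0.09 in snf2-W935R and 0.73 ± 0.09 in snf2-Q928K.

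ATP3 stood at 118, 167 and 139 TPM in swi3del, 119, 135 and 148 TPM in swi3-E815X and 156, 149 and 143 TPM in SWI3. ATP3 in the SNF2 family stood at 135, 129 and 141 TPM in snf2del, 182, 172 and 171 TPM in snf2-W935R, 168, 135 and 144 TPM in snf2-Q928K and 144, 153 and 127 TPM in SNF2. The swi3del and snf2del libraries overlapped their wild types, and snf2-W935R lay above SNF2. The change was -0.10 ± 0.12, adjusted p = 0.485 in swi3del (95% interval -0.36 to 0.16), -0.06 ± 0.09, adjusted p = 0.511 in snf2del (95% interval -0.25 to 0.12), 0.31 ± 0.09, adjusted p = 0.0152 in snf2-W935R and 0.07 ± 0.09, adjusted p = 0.488 in snf2-Q928K. The call in snf2-W935R was lost without SNF2 replicate 3 or snf2-W935R replicate 1. With median-ratio scaling ATP3 fell in both deletions, by 0.33 on the log2 scale in swi3del and 0.32 in snf2del, and stood at -0.04 in snf2-Q928K.

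ATP16 stood at 232, 254 and 239.8 TPM in swi3del, 204, 218 and 252 TPM in swi3-E815X and 205, 227 and 202 TPM in SWI3. ATP16 in the SNF2 family stood at 243, 229 and 231 TPM in snf2del, 250.1, 237 and 229 TPM in snf2-W935R, 237, 196 and 209 TPM in snf2-Q928K and 226, 212 and 188 TPM in SNF2. Each swi3del library was above each SWI3 library by a small margin, and snf2del was likewise above SNF2. The change was 0.19 ± 0.08, adjusted p = 0.0558 in swi3del, 0.17 ± 0.08, adjusted p = 0.0655 in snf2del, 0.20 ± 0.08, adjusted p = 0.0858 in snf2-W935R and 0.04 ± 0.08, adjusted p = 0.72 in snf2-Q928K. It passed the test in swi3del with all 21 libraries in 1 fit and without SWI3 replicate 2, swi3-E815X replicate 1 or swi3-E815X replicate 3, in snf2del without SNF2 replicate 1 or snf2-Q928K replicate 1, and in snf2-W935R without SNF2 replicate 1. With median-ratio scaling the change was below 0 in both deletions, at -0.04 in swi3del and -0.09 in snf2del, and in snf2-Q928K, at -0.08.

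The ratio of ATP2, of the head, to ATP3, of the central stalk, does not depend on the scaling. The pairs given here were chosen after their values were seen, so their ratios are a description only. ATP2 per ATP3 stood at 11.4, 9.98 and 9.33 in swi3del, 6.49, 6.06 and 5.37 in swi3-E815X and 5.01, 5.07 and 5.23 in SWI3. In the SNF2 family the ratio stood at 11.0, 11.2 and 10.9 in snf2del, 5.90, 5.94 and 6.34 in snf2-W935R, 8.33, 8.59 and 7.47 in snf2-Q928K and 4.83, 5.17 and 5.47 in SNF2. Each mutant lay above its wild type with no overlap, both deletions the furthest. In swi3-E815X the margin was narrow, with 5.37 in its lowest library against 5.23 in the highest of SWI3. For ATP1 per ATP3, however, swi3-E815X (2.31, 2.21 and 1.87) overlapped SWI3 (1.94, 1.96 and 1.94). ATP15 per ATP16, the epsilon and delta of the same stalk, averaged 1.47 ± 0.133 in swi3del and 0.860 ± 0.117 in SWI3, and 1.49 ± 0.0102 in snf2del and 0.791 ± 0.0628 in SNF2 (SD, n = 3 each).

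ATP4, a stator subunit of the membrane part, stood at 231, 266 and 229.6 TPM in swi3del, 193, 176 and 213 TPM in swi3-E815X and 143, 176 and 185 TPM in SWI3. ATP4 in the SNF2 family stood at 225, 238 and 208 TPM in snf2del, 242, 226 and 221 TPM in snf2-W935R, 216, 179 and 193 TPM in snf2-Q928K and 195, 179.9 and 197 TPM in SNF2. The change was 0.53 ± 0.11, adjusted p = 0.000749 in swi3del, 0.23 ± 0.08, adjusted p = 0.0152 in snf2del, 0.27 ± 0.08, adjusted p = 0.0187 in snf2-W935R and 0.03 ± 0.08, adjusted p = 0.727 in snf2-Q928K. The snf2del rise was lost without SNF2 replicate 2 or snf2del replicate 2, and that in snf2-W935R without SNF2 replicate 2 or snf2-W935R replicate 1. With median-ratio scaling ATP4 stood at -0.032 in snf2del and at -0.08 in snf2-Q928K.

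ATP17 (subunit f) stood at 225, 290.3 and 290.1 TPM in swi3del, 195, 213 and 237 TPM in swi3-E815X and 198, 208 and 212 TPM in SWI3. ATP17 in the SNF2 family stood at 225, 210.2 and 238 TPM in snf2del, 248, 218 and 216 TPM in snf2-W935R, 226, 176 and 179 TPM in snf2-Q928K and 191, 158 and 182 TPM in SNF2. All deletion libraries were above their wild types, by 0.37 ± 0.10, adjusted p = 0.00637 in swi3del and 0.34 ± 0.10, adjusted p = 0.00643 in snf2del, and both calls were lost with median-ratio scaling. In snf2-W935R the change was 0.36 ± 0.10, adjusted p = 0.0154, a call lost without SNF2 replicate 2 or snf2-W935R replicate 1, and in snf2-Q928K 0.12 ± 0.10, adjusted p = 0.315.

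ATP18 (subunit i) stood at 175, 219.8 and 170.3 TPM in swi3del, 169, 142 and 207 TPM in swi3-E815X and 116, 156 and 138 TPM in SWI3. ATP18 in the SNF2 family stood at 152, 158 and 129 TPM in snf2del, 172, 174 and 150.2 TPM in snf2-W935R, 168, 117 and 122 TPM in snf2-Q928K and 137, 121 and 145 TPM in SNF2. It rose in swi3del (0.46 ± 0.16, adjusted p = 0.0235), a call lost with median-ratio scaling and without SWI3 replicate 1, SWI3 replicate 3 or swi3del replicate 2. In the SNF2 family it passed no test, at 0.13 ± 0.13, adjusted p = 0.39 in snf2del, 0.30 ± 0.13, adjusted p = 0.104 in snf2-W935R and 0.0029 ± 0.13, adjusted p = 0.986 in snf2-Q928K, and with median-ratio scaling it stood below 0 in snf2del (-0.13) and snf2-Q928K (-0.11). ATP7 and ATP14 of the peripheral stalk and ATP20 and TIM11, subunits g and e that join the enzyme into dimers, rose by 0.49 to 0.87 in swi3del and 0.61 to 0.75 in snf2del.

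INH1, which blocks ATP hydrolysis by the enzyme, stood at 178, 213 and 149.9 TPM in swi3del, 148, 157 and 165 TPM in swi3-E815X and 130.2, 132 and 138 TPM in SWI3. INH1 in the SNF2 family stood at 184, 192 and 191 TPM in snf2del, 197, 183 and 184 TPM in snf2-W935R, 237, 164 and 144 TPM in snf2-Q928K and 131, 141 and 106 TPM in SNF2. It rose in both deletions and both snf2 alleles, by 0.42 ± 0.11, adjusted p = 0.00377 in swi3del, 0.59 ± 0.15, adjusted p = 0.00439 in snf2del, 0.58 ± 0.15, adjusted p = 0.0158 in snf2-W935R and 0.50 ± 0.15, adjusted p = 0.0158 in snf2-Q928K, and with median-ratio scaling only the call in snf2-W935R remained. That call was lost without SNF2 replicate 3 or snf2-W935R replicate 1, and the one in snf2-Q928K without SNF2 replicate 3. Per ATP2 it averaged 0.125 ± 0.00886 in swi3del and 0.175 ± 0.00833 in SWI3, and 0.127 ± 0.00480 in snf2del and 0.173 ± 0.0186 in SNF2 (SD, n = 3 each), so its rise was smaller than that of ATP2 in both deletions.

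**Figure D3:**
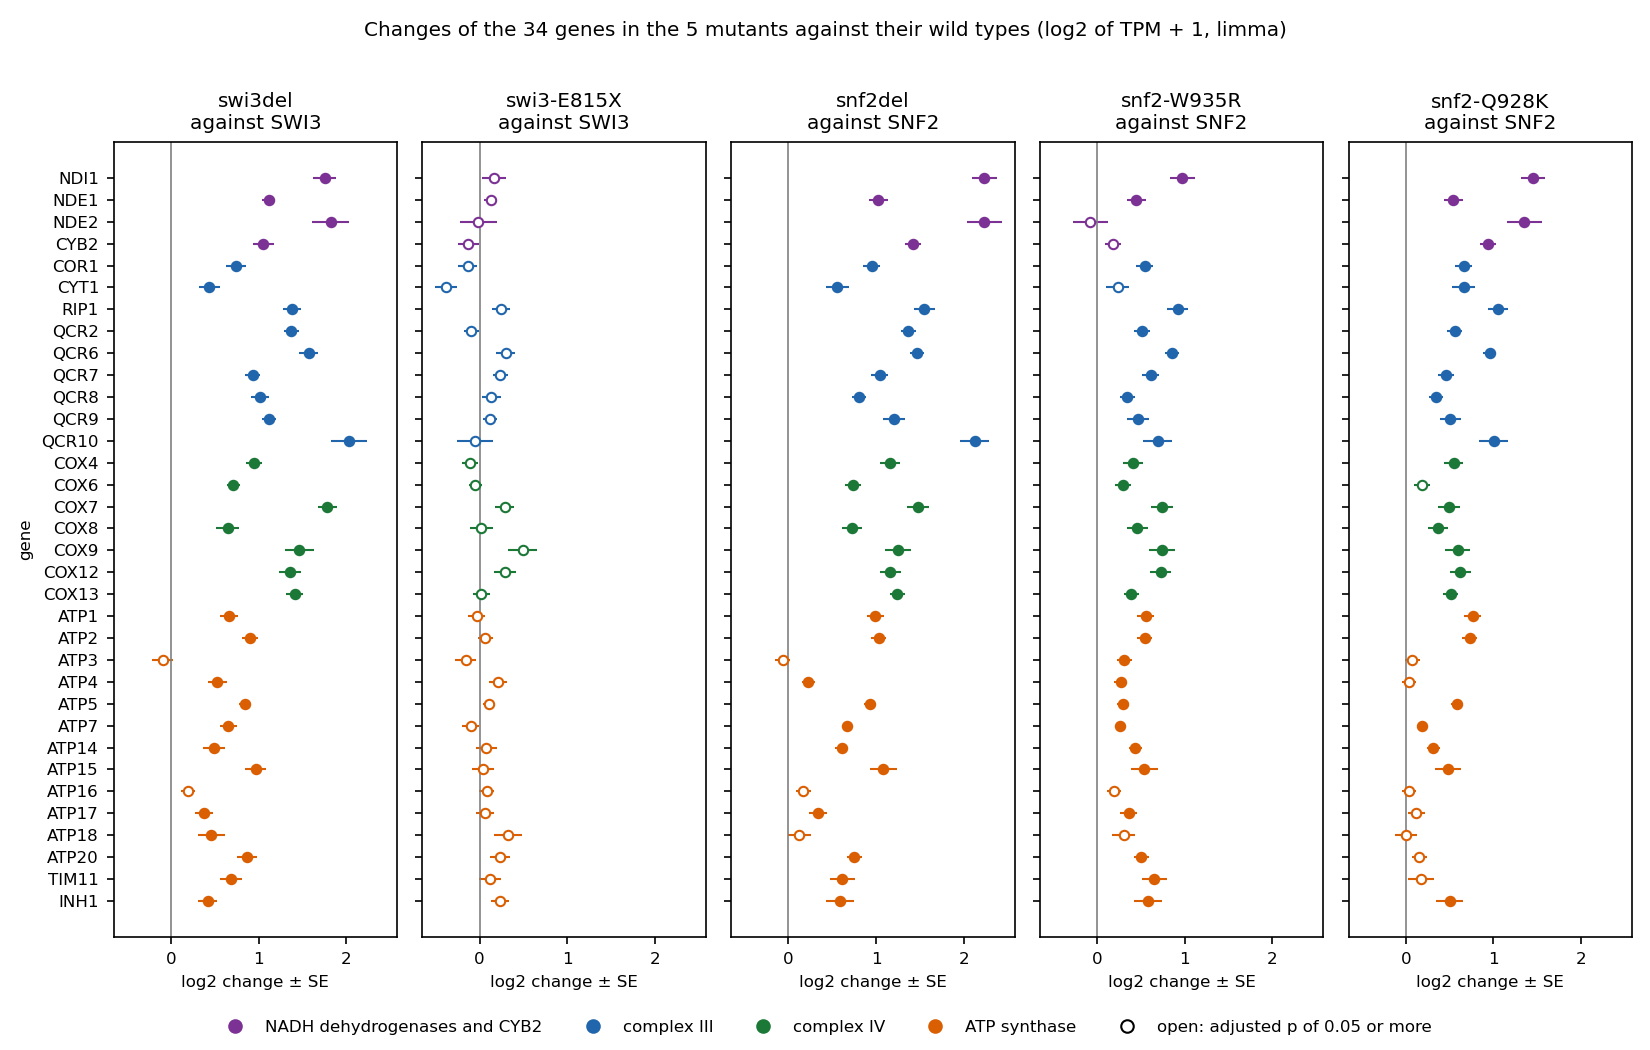
Points are log2 changes on the log2(TPM + 1) scale with SE for the 34 genes (rows, coloured by complex) in the 5 mutants against their wild types, filled where the adjusted p is under 0.05. The deletions spread between about 0 (ATP3) and 2.24 (NDI1 and NDE2 in snf2del), and every swi3-E815X point is open.

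In swi3-E815X the chain stood near the wild type. None of the 34 genes passed the test in either direction in limma, where 3.06% of all genes rose and 5.77% fell. At an unadjusted p under 0.05 there were 8, against 22.2% of all genes. The authors' deposited table called none of the 34. All 95% intervals lay within log2 1 of no change, the widest bounds being -0.65 for CYT1 and 0.86 for COX9, and 27 of the 34 lay within 0.5. The median change was 0.08, against -0.03 over all genes tested. The calls of this comparison were not wholly stable, since QCR6 passed the test with all 21 libraries in 1 fit, QCR6 and COX9 without swi3-E815X replicate 2, and CYT1 as a fall without swi3del replicate 2 or 3.

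Set directly against swi3del, swi3-E815X had 30 of the 34 genes lower and none higher, where 48% of all genes were lower and 20.9% higher. The largest differences were those of QCR10 (-2.09 ± 0.21), NDE2 (-1.84 ± 0.21) and NDI1 (-1.59 ± 0.13). ATP3, ATP16, ATP18 and INH1 passed no test there. Under median-ratio scaling 27 of the 34 were lower and none higher, where 33.3% of all genes were lower and 34.1% higher.

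In the strains with the ATPase alleles most of the chain was higher than in SNF2, with smaller medians than in snf2del. In snf2-W935R 29 of the 34 genes rose and none fell, where 16.3% of all genes rose and 10.9% fell, and no change reached log2 1 (1.48% of all genes rose by that much). NDE2, CYB2, CYT1, ATP16 and ATP18 did not pass. In snf2-Q928K 26 rose and none fell, where 36.3% of all genes rose and 20.7% fell, and 4 rose by log2 1 or more (7.05% of all genes did): NDI1, NDE2, RIP1 and QCR10. The genes not past the test were COX6, ATP3, ATP4, ATP16, ATP17, ATP18, ATP20 and TIM11, 7 of them of ATP synthase. The median change was 0.46 in snf2-W935R, against 0.03 over all genes, and 0.51 in snf2-Q928K, against 0.10. At an unadjusted p under 0.05 there were 31 in either direction in snf2-W935R, against 38% of all genes, and 26 in snf2-Q928K, against 61.5%. For each allele 13 of the 34 were higher and none lower in the authors' deposited table, where 2.6% of all genes listed were higher in snf2-W935R and 8.99% in snf2-Q928K. With median-ratio scaling 29 of the 34 rose in snf2-W935R, where 15.4% of all genes rose. In snf2-Q928K 22 rose under that scaling, where 29.2% of all genes did, and COX8, ATP7, ATP15 and INH1 lost their calls. Both alleles are set against the same SNF2 libraries, so these changes are given side by side only.

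Set directly against each other, snf2-Q928K and snf2-W935R differed in 9 of the 34 genes. Of the 34 genes 5 were higher in snf2-Q928K (30% of all genes were) and 4 were lower (14.1% of all genes were). Higher in snf2-Q928K were NDE2 (1.43 ± 0.20, adjusted p = 6.27e-05), CYB2 (0.76 ± 0.10, adjusted p = 2.6e-05), NDI1 (0.48 ± 0.14, adjusted p = 0.0149), CYT1 (0.42 ± 0.13, adjusted p = 0.0213) and ATP5 (0.29 ± 0.07, adjusted p = 0.00311). NDE1, the other entry gene, was not called (0.09 ± 0.11, adjusted p = 0.505), and NDI1 lost its call with median-ratio scaling (adjusted p = 0.0535). Lower were 4 genes of ATP synthase, TIM11 (-0.48 ± 0.15, adjusted p = 0.0181), ATP20 (-0.35 ± 0.09, adjusted p = 0.00577), ATP3 (-0.24 ± 0.09, adjusted p = 0.0376) and ATP4 (-0.23 ± 0.08, adjusted p = 0.0247). For the 25 genes that passed no test the difference is not shown to be absent, and over all 34 genes 25 of the 95% intervals lay within log2 0.5.

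The number of genes in this comparison depended on single libraries. Without snf2-Q928K replicate 1 there were 3 higher and 13 lower, and the number lower was 1 without snf2-Q928K replicate 2, snf2-Q928K replicate 3, snf2-W935R replicate 1 or snf2-W935R replicate 2. Without snf2-Q928K replicate 1 the rises against SNF2 numbered 24 and their median was 0.38. With median-ratio scaling 3 were higher in snf2-Q928K and 9 lower.

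Against snf2del, snf2-W935R had 25 genes lower (48.5% of all genes were) and 1 higher (23.4% were), ATP3 (0.37 ± 0.09, adjusted p = 0.00126). With median-ratio scaling these counts were 16 lower and 5 higher. In snf2-Q928K 27 genes were lower than in snf2del (40.5% of all genes were) and none was higher (22.3% were), in limma and with 29 genes in either direction at an unadjusted p under 0.05 (66.3% of all genes). Under median-ratio scaling 21 were lower (29.6% of all genes were) and 1, ATP3, was higher (32.9% were). NDE2 showed the greatest difference of snf2-W935R from the deletion, -2.31 ± 0.20, and QCR10 that of snf2-Q928K, -1.12 ± 0.16.

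**Figure D4:**
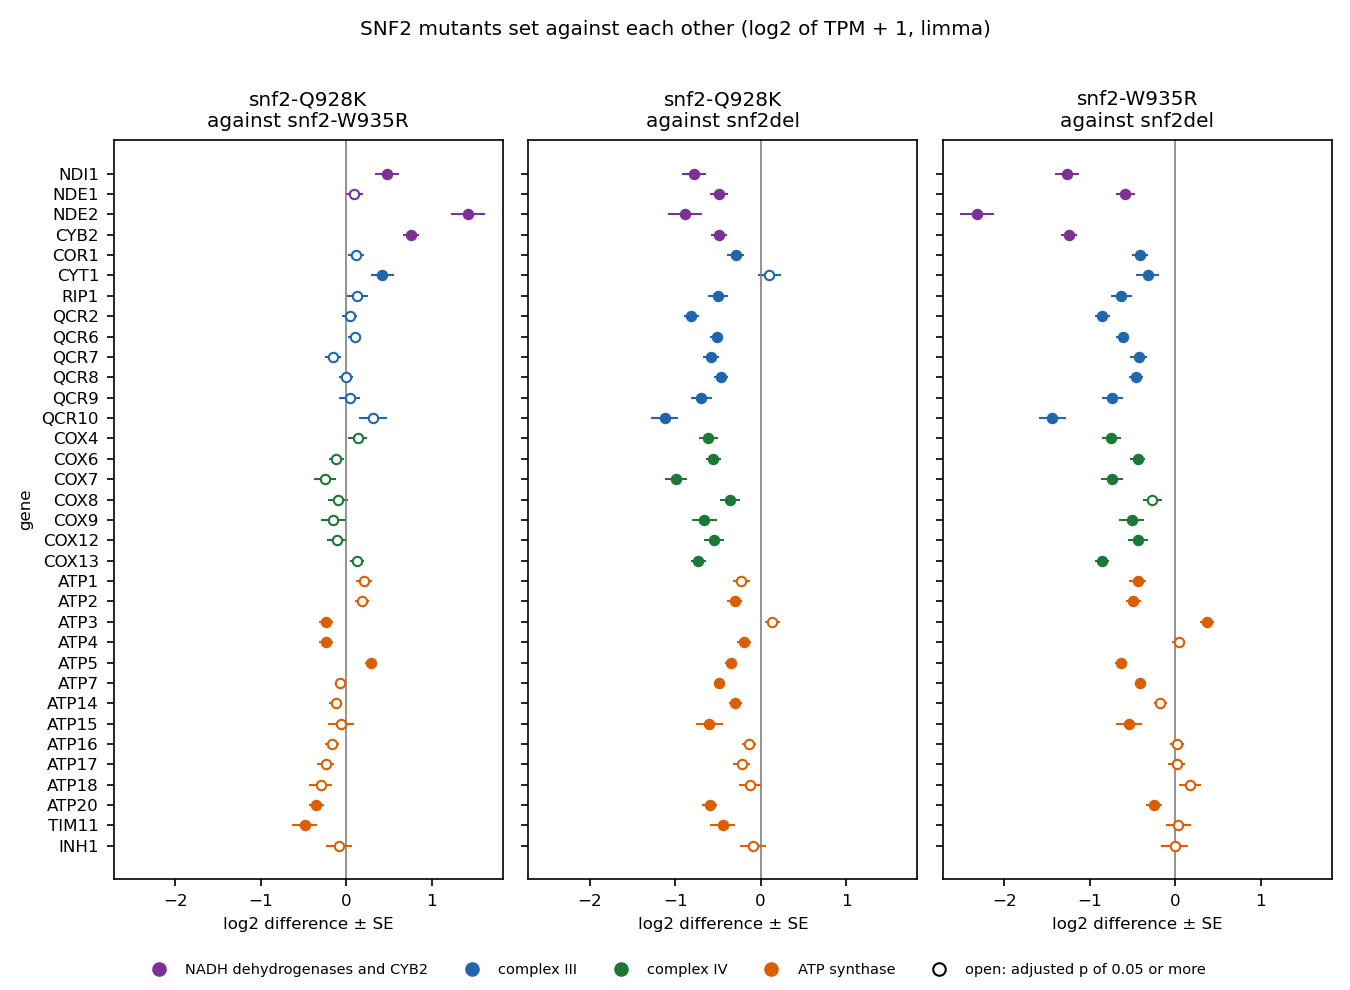
Points are differences on the log2(TPM + 1) scale with SE between pairs of SNF2 mutants for the 34 genes, filled where the adjusted p is under 0.05. NDE2 and CYB2 lie right of 0 in snf2-Q928K against snf2-W935R, and nearly all genes of complexes III and IV lie left of 0 where an allele is set against snf2del.

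The changes of the 34 genes in the 2 deletions were set against each other. Those in swi3del and in snf2del, which share no library, had a Pearson r of 0.93 and a Spearman rho of 0.95 across the 34 genes, given as a description because genes of 1 library share its depth and culture. A test of the difference of the changes (swi3del minus its wild type, less snf2del minus its wild type) called none of the 34 in limma, where 2.28% of all genes were called. At an unadjusted p under 0.05 there were 4, against 13.2% of all genes: NDI1 (-0.48 ± 0.21, 95% interval -0.92 to -0.04), CYB2 (-0.37 ± 0.14), ATP1 (-0.33 ± 0.15) and ATP4 (0.30 ± 0.13). All 34 intervals lay within log2 1 and 17 within 0.5, the widest bounds being -0.99 for NDE2 and 0.79 for ATP18. The wild types SNF2 and SWI3 also had none of the 34 called in either direction in limma (1.41% of all genes higher in SNF2 and 2.56% lower), and 2 at an unadjusted p under 0.05 (16.8% of all genes).

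The neighbours of the chain were described from lists of its pathway. All 9 genes listed for succinate dehydrogenase and other dehydrogenases rose in swi3del, in snf2del and in snf2-Q928K, and 8 rose in snf2-W935R. Among all genes 47.4% rose in swi3del, 50.2% in snf2del, 36.3% in snf2-Q928K and 16.3% in snf2-W935R. GUT2, the mitochondrial glycerol-3-phosphate dehydrogenase, stood at 297 ± 20.9 TPM in swi3del, 18.8 ± 0.87 TPM in swi3-E815X and 14.2 ± 0.5 TPM in SWI3 (SD, n = 3 each), a rise of 4.29 ± 0.08 in swi3del and, as the 1 gene of the list called in swi3-E815X, of 0.38 ± 0.08, adjusted p = 0.00681 there. In the SNF2 family it stood at 353 ± 11 TPM in snf2del, 24.4 ± 2.66 TPM in snf2-W935R, 94.9 ± 11.9 TPM in snf2-Q928K and 16.4 ± 2.25 TPM in SNF2. Its rise was larger than that of any of the 34 genes in each deletion. DLD1, the D-lactate dehydrogenase, rose by 1.51 ± 0.07 in snf2del and 1.30 ± 0.07 in snf2-Q928K.

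Of 10 genes of coenzyme Q synthesis 5 rose in swi3del and none fell, and 6 rose and 1 fell in snf2del, where 47.4% of all genes rose in swi3del and 50.2% in snf2del, so these counts stand near the share of all genes. COQ2, which joins the ring to its side chain, rose by 1.64 ± 0.09 in swi3del, 1.90 ± 0.07 in snf2del, 0.42 ± 0.07 in snf2-W935R and 1.19 ± 0.07 in snf2-Q928K. The list was split under median-ratio scaling, with 4 higher and 3 lower in each deletion.

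Among assembly factors the shares that rose can be read against the 47.4% of all genes that rose in swi3del and the 50.2% that rose in snf2del. For complex III 5 of 11 rose and 1 fell in swi3del, and 4 rose and 1 fell in snf2del, with CBP4 at 1.86 ± 0.15 in swi3del and 1.42 ± 0.11 in snf2del. For complex IV 14 of 33 rose and 3 fell in swi3del, 16 rose and 3 fell in snf2del, 19 rose and 1 fell in snf2-W935R (16.3% of all genes rose), and 17 rose and 5 fell in snf2-Q928K (36.3% rose). COA2 rose by 2.499 ± 0.13 in swi3del and 2.43 ± 0.13 in snf2del, and COA6 by 1.82 ± 0.09 in swi3del and 1.73 ± 0.11 in snf2del. In swi3-E815X COA6 was called as well (0.79 ± 0.09, adjusted p = 0.000122), and so was COA2 (0.48 ± 0.13, adjusted p = 0.0434), a call lost without SWI3 replicate 1 or 2, without swi3del replicate 3, without any 1 of the swi3-E815X libraries and with plain moderation (adjusted p = 0.0741). Of 17 assembly and stabilising factors of ATP synthase 7 rose in each deletion, none fell in swi3del and 1 fell in snf2del. STF1, which stabilises the complex of the enzyme with its inhibitor, rose by 3.04 ± 0.17 in swi3del, 2.99 ± 0.15 in snf2del, 0.84 ± 0.15 in snf2-W935R and 1.82 ± 0.15 in snf2-Q928K.

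With median-ratio scaling the assembly lists no longer leaned one way in the deletions: complex III factors were 2 higher and 4 lower in swi3del and 2 and 2 in snf2del, complex IV factors 9 higher and 8 lower in swi3del and 9 and 7 in snf2del, and ATP synthase factors 5 higher and 7 lower in swi3del and 6 and 6 in snf2del. COX20, an assembly factor of complex IV, fell by 1.14 on the log2 scale in snf2-W935R and 0.82 in snf2-Q928K against SNF2. In snf2del COX20 passed the test only with median-ratio scaling (-0.43, adjusted p = 0.000449). It also differed between the wild types (1.24 ± 0.12, adjusted p = 3.2e-07 in SNF2 against SWI3): COX20 stood at 18.3 ± 2.3 TPM in snf2-W935R, 23 ± 2.19 TPM in snf2-Q928K and 41.3 ± 1.53 TPM in SNF2, and at 17.1 ± 2.34 TPM in SWI3 (SD, n = 3 each).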

How the data were processed

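Levels were the TPM of 6407 genes in 21 libraries, deposited by the authors in 1 table, per the file headers. The submitters' processing notes, which the authors deposited, name the builds R64 and sacCer3 and the tools StringTie, HISAT2 and DESeq2. Tool versions, settings and the use of strand in counting: not given in the sources used here. The authors' deposited comparison tables hold a mean signal, a log2 fold change with SE, a test score, and p-values, per the file headers. They were used only where named. No sample column was left unused (0).

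Changes were fitted with limma 3.58.1 (statmod 1.5.0) in R 4.3.3 on log2(TPM + 1), with the empirical Bayes trend and robust options. A gene was tested where 3 or more of the fitted libraries reached 1 TPM. Families were fitted apart, with 9 libraries of SWI3 strains and 12 of SNF2 strains, and comparisons across families used all 21. Each adjusted p is two-sided, by Benjamini-Hochberg over all genes tested in a comparison, and a call is an adjusted p under 0.05. Replicates are labelled as biological and taken on separate days. Correlations of deviations between same-numbered libraries ran between -0.18 and 0.19. In no comparison were they above 0.1 in every pair, so no block was used. In swi3-E815X against swi3del they were 0.188, 0.048 and 0.118, so some shared deviation is not excluded. The fitting was tested on simulated data. Alternatives were other pseudocounts, no filter, median-ratio scaling, plain moderation, a joint fit, a replicate block and leaving out each library.

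The members and lists were chosen with earlier results of these data known. Values in every library are given for the 3 highest and 3 lowest changes in each mutant and for 10 genes of distinct role; from the other lists at most 2 rises and 2 falls per comparison are named. Ratios between genes were chosen after their values were seen. Genes of the mitochondrial genome were not analysed here, and no protein sequence was used. The gene models came from the RefSeq annotation of R64. The 34 genes overlap no other annotated gene, and none has a copy of at least 80% identity over 100 bases (BLASTN 2.17.0). Shared reads from such overlaps or copies are therefore not a known limit for them. Reads from transcript ends that run past the annotated genes were not checked.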

Additional observations from a re-analysis of the deposited data

How the results depend on the processing

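The 34 genes in the 5 mutants gave 3026 results over the alternatives, of which 2963 kept their side of the threshold, 43 lost the call, 19 gained one and 1 reversed. Among the 2963 were 37 changes of sign in values called in neither fit, 29 of them without 1 library. The reversal was ATP4 in snf2del with median-ratio scaling (-0.032), and among the pathway genes HAP2 in snf2del reversed with the same scaling (-0.020). By its construction that scaling removes the shift of the middle gene: the median changes became 0.75 in snf2del and 0.68 in swi3del, 1 gene fell in snf2del and 1 in swi3del, snf2-W935R against snf2del had 5 higher and 16 lower, snf2-Q928K against snf2del had 1 higher, and snf2-Q928K against snf2-W935R had 3 higher and 9 lower. With all 21 libraries in 1 fit, swi3-E815X had 1 gene higher than SWI3 and snf2-Q928K had 2 lower than snf2-W935R; the cause was not tested.

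Leaving out 1 library at a time, the genes higher numbered 31 to 33 in swi3del, 30 to 32 in snf2del, 24 to 26 in snf2-Q928K, 22 to 30 in snf2-W935R and 0 to 2 in swi3-E815X, with 0 to 1 lower in swi3-E815X. Between snf2-Q928K and snf2-W935R 3 to 7 were higher and 1 to 13 lower; the cause was not tested. The lowest count in snf2-W935R, 22, came without its replicate 1. With the replicate number as a block, the genes higher numbered 33 in swi3del, 32 in snf2del, 26 in snf2-Q928K, 30 in snf2-W935R and 0 in swi3-E815X, and the block changed no direction of a called value. Under it ATP16 passed in swi3del, snf2del and snf2-W935R, CYC1 passed in snf2-Q928K (adjusted p = 0.0143), CYC7 in swi3-E815X and QRI5 in both snf2 alleles, and COA2 (adjusted p = 0.0546) and COX5B (adjusted p = 0.0627) in swi3-E815X lost their calls. Other pseudocounts, no filter and plain moderation changed no count of the 34 genes by more than 1.5 times. The joint fit gives the test of the difference of the deletions no alternative of its own. Since depth is unknown, no counting error could be given, and NDE2, between 0.992 and 2.58 TPM in the wild types and snf2-W935R, is the gene most exposed to it.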

Other observations

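Isoforms of proteins around the chain did not all change in 1 direction. AAC1, a minor mitochondrial ADP/ATP carrier, stood at 159 ± 1.87 TPM in swi3del, 15.5 ± 0.44 TPM in swi3-E815X and 7.4 ± 0.957 TPM in SWI3 (SD, n = 3 each), with log2 changes of 4.26 ± 0.09, adjusted p = 1.19e-11 in swi3del and 0.98 ± 0.09, adjusted p = 1.51e-05 in swi3-E815X. In the SNF2 family it stood at 186 ± 8.36 TPM in snf2del, 21.5 ± 0.629 TPM in snf2-W935R, 45.2 ± 8.69 TPM in snf2-Q928K and 6.76 ± 0.545 TPM in SNF2. AAC3, the carrier known from growth without oxygen, moved the other way: it fell to 2.16 ± 0.688 TPM in swi3del, against 21.3 ± 3.55 TPM in SWI3, and to 2.58 ± 0.372 TPM in snf2del, 7.9 ± 1.9 TPM in snf2-W935R and 2.6 ± 0.223 TPM in snf2-Q928K, against 16.7 ± 1.3 TPM in SNF2. PET9, the major carrier, rose by 0.88 ± 0.08 in swi3del, 1.14 ± 0.10 in snf2del, 0.86 ± 0.10 in snf2-W935R and 1.02 ± 0.10 in snf2-Q928K.

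CYC7, the minor cytochrome c, rose by 3.17 ± 0.24 in swi3del, 3.17 ± 0.15 in snf2del, 1.41 ± 0.15 in snf2-W935R and 1.74 ± 0.15 in snf2-Q928K, and CYC1, the major form, by 1.41 ± 0.09 in swi3del and 1.21 ± 0.18 in snf2del. CYC1 was lower in swi3-E815X (-0.40 ± 0.09, adjusted p = 0.0166), a call lost without SWI3 replicate 2 or 3 or swi3-E815X replicate 1 and with all 21 libraries in 1 fit. It passed no test in snf2-W935R (0.26 ± 0.18, adjusted p = 0.329) or in snf2-Q928K (0.37 ± 0.18, adjusted p = 0.11), where it passed without SNF2 replicate 1 or snf2-Q928K replicate 3. COX5B was also lower in swi3-E815X (-0.34 ± 0.09, adjusted p = 0.0454), a call lost without any 1 library of SWI3, without swi3-E815X replicate 2 or 3, without swi3del replicate 1 or 2, and with median-ratio scaling, plain moderation or a pseudocount of 5. Of the complex IV pair, COX5A rose by 1.20 ± 0.09 in swi3del and 1.20 ± 0.07 in snf2del and COX5B, the hypoxic form, by 0.99 ± 0.09 in swi3del and 1.12 ± 0.09 in snf2del, whereas in the snf2 alleles COX5A rose (0.39 ± 0.07 in snf2-W935R and 0.60 ± 0.07 in snf2-Q928K) and COX5B passed no test (-0.02 ± 0.09, adjusted p = 0.908 in snf2-W935R and -0.01 ± 0.09, adjusted p = 0.955 in snf2-Q928K).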
